A study of Mus musculus with 41 samples.

Results

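The genes described here encode proteins of the lysosome: cathepsins and other proteases, glycosidases, sulfatases, lipid hydrolases and their cofactors, membrane proteins, subunits of the proton pump, and the transcription factors that control many of these genes. The 49 members were taken by symbol from the authors' deposited tables of 55453 genes, all 49 were present, and all 49 carried an adjusted p-value in each of the 3 comparisons. The samples came from MC38-luc tumours, a mouse colon adenocarcinoma line with a luciferase gene, that had been placed in the rectum of female C57BL6 mice. Irradiated tumours were given 5 Gy a day for 5 days, from day 9 to day 13 of growth, untreated tumours (labelled UT) were given none, and both were harvested on day 14. CD45+ CD11b+ cells were sorted into tumour-associated macrophages (TAM; Ly6C- Ly6G- F4/80+), inflammatory monocytes (Ly6C+ Ly6G-; monocytes from here on) and granulocytes (Ly6C+ Ly6G+). TAM libraries came from 10 irradiated and 5 untreated tumours, monocyte libraries from 9 irradiated and 5 untreated tumours, and granulocyte libraries from 7 irradiated and 5 untreated tumours. Numbered tumours supplied more than 1 subset, so the 3 comparisons share tumours, and each contrasts libraries of 1 subset. Whether the comparisons were fitted separately or together was not established here.

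Lysosomes are acidic organelles in which acid hydrolases break down material taken up by phagocytosis and endocytosis or delivered by autophagy. A proton pump, the V-ATPase, keeps the lumen acidic, glycosylated membrane proteins line the inner face, and the MiT/TFE factors TFEB, TFE3 and MITF switch on many lysosomal genes through short DNA elements in their promoters. Macrophages are rich in lysosomes because they digest dead cells, and neutrophil granules share several of the same hydrolases and membrane proteins.

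The results rest on the authors' comparison tables, and single-library values were not analysed here, so no SD is given. Each gene has a mean normalised count over the libraries and a log2 fold change of irradiated over untreated. It also has a Wald statistic (the effect over its standard error, which carries the error), and a p-value before and after adjustment. For some called genes the deposited fold differs in sign from the Wald statistic, so it is not the effect used there. The mean normalised count was the same in all 3 tables, so it describes no single subset, and read depth per library is unknown. For the members it ran between 57.8 and 125508 with a median of 4677, in counts not corrected for gene length, and 41 members had at least 1000. A gene is said to have risen or fallen where the authors' adjusted p was under 0.05, with the direction taken from the Wald statistic. In sorted bulk samples such as these, fewer cells of a type and less RNA per cell cannot be told apart.

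The first question was how many lysosomal genes differed between irradiated and untreated tumours in each subset. Lysosomal genes were more often higher than lower after irradiation, in each subset. In TAM 20 of the 49 members rose and 1 fell, against 13.9% of all tested genes that rose and 12.5% that fell. In monocytes 12 rose and 0 fell (0 also at an unadjusted p under 0.05 of the authors' DESeq2 test), against 4.13% of all tested genes that rose and 1.77% that fell. In granulocytes 13 rose and 3 fell, against 7.32% that rose and 9.9% that fell among all tested genes. In either direction the shares of all tested genes were 26.4% in TAM, 5.9% in monocytes and 17.2% in granulocytes. As shares, the members that rose made up 40.8% in TAM, 24.5% in monocytes and 26.5% in granulocytes. Highly counted genes were called more often, and the members were mostly such genes. Among genes with a mean of at least 1000 counts, the members rose in 41.5% of cases in TAM, against 31.2% of all such genes. The same limit gave 26.8% of members against 6.06% of all such genes in monocytes, and 29.3% against 12.8% in granulocytes. The TAM share was thus closer to its background than the shares in the other subsets. Of all genes with such a mean, 14.3% fell in TAM, 2.93% in monocytes and 13.5% in granulocytes. Of the 41 members with such a mean, 0, 0 and 3 fell, in the same order.

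Most changes were small. The median log2 fold change of the members was 0.26 in TAM, against 0.03 for all tested genes there, per the authors' deposited tables. It was 0.27 in monocytes, against 0.02 for all tested genes, and 0.25 in granulocytes, against -0.03 for all tested genes. Among genes with a mean of at least 1000 counts, the TAM median was 0.257 for members and 0.175 for all such genes. These medians were 0.272 and 0 in monocytes, and 0.247 and -0.004 in granulocytes. The TAM median was thus closer to this background than the medians of the other subsets. The Wald statistic was above 0 for 39 members in TAM, 40 in monocytes and 36 in granulocytes. Over all tested genes it was above 0 for 8890 of 16851, 7700 of 14506 and 7349 of 15679, in the same order. Of the 41 members with a mean of at least 1000 counts, it was above 0 for 34, 33 and 30. Of all 3962 genes with such a mean, it was above 0 for 2604, 1987 and 1959. Of the members that rose, 12 in TAM, 6 in monocytes and 7 in granulocytes had a log2 fold change of at least 0.5. The spread of Wald statistics over all genes was wide, with a robust SD of 2.72 in TAM, 1.56 in monocytes and 2.09 in granulocytes. When the Wald statistics were divided by that SD, 0 members passed in any subset, although at an unadjusted p under 0.05 of the scaled DESeq2 statistic 4 were higher in TAM, 12 in monocytes and 5 in granulocytes. Over all genes of a mean of at least 50, that scaling left 26 calls in monocytes and 0 in either other subset.

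**Figure D1:**
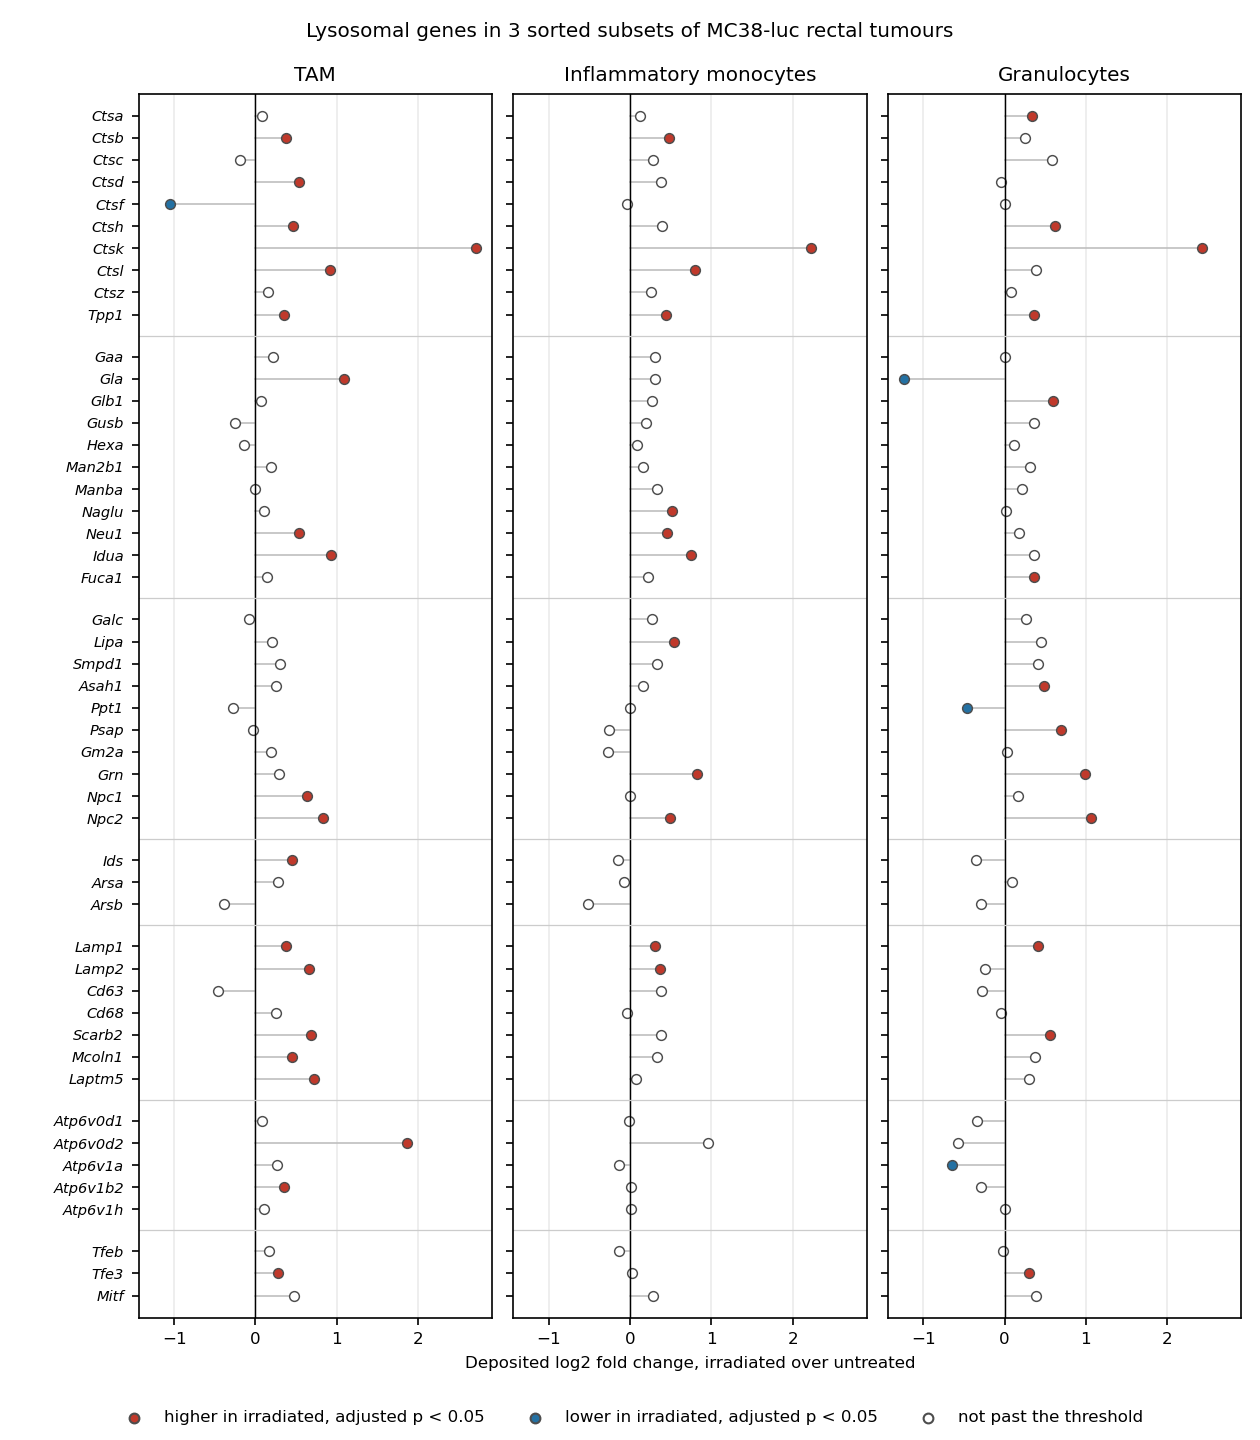
Deposited log2 fold change of irradiated over untreated libraries (horizontal axis) for the 49 lysosomal genes (vertical axis, by role) in TAM, monocytes and granulocytes; filled points passed an adjusted p of 0.05, red for higher and blue for lower, and open points did not. Ctsk lies above 2 in all 3 panels, and Gla lies at 1.09 in TAM and at -1.24 in granulocytes.

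Across the subsets, 4 members rose in all 3 comparisons: the cathepsin gene Ctsk, the protease gene Tpp1, the membrane protein gene Lamp1 and the cholesterol carrier gene Npc2. Over all genes tested in the 3 subsets, 1.25% rose in each of them. A further 5 members rose in TAM and monocytes (Ctsb, Ctsl, Neu1, Idua and Lamp2), 3 in TAM and granulocytes (Ctsh, Scarb2 and Tfe3), and 1, Grn, in monocytes and granulocytes. In 1 subset alone, 7 members rose in TAM, 2 in monocytes and 5 in granulocytes, while 18 passed in no subset, against 59.2% of all genes tested in the 3 subsets. Altogether 28 members rose in at least 1 subset, against 21.2% of all such genes. These shares over all genes include genes of low mean, which were called less often, whereas the members were mostly highly counted. They were not taken for genes with a mean of at least 1000 counts. Calls in 2 subsets or in 1 alone were not counted over all genes, so those member counts have no background. No member fell in all 3 subsets, either after adjustment or at an unadjusted p under 0.05 of the authors' DESeq2 test, against 0.689% of all such genes that fell after adjustment. A call in 1 subset and not in another does not show that the subsets differ. The difference was tested for opposite directions, with the less extreme p-value of the pair as the p where the Wald signs differ. Of all genes, 0.0957% were opposite in TAM and granulocytes by that test, and of the members 1 was, Gla. Between TAM and monocytes, and between monocytes and granulocytes, 0 members were opposite, with 0 and 1 at an unadjusted p under 0.05 of the authors' DESeq2 tests. Of all 14506 genes tested in each of these pairs, 0 passed, so the absence is not particular to the members.

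Promoter sequences are shown for members that changed, because MiT/TFE factors bind an E-box with the core CACGTG, which is its own reverse complement. RefSeq promoters of the build GRCm38.p6, an earlier build than the authors' GRCm39, run 250 bases before to 50 after each transcription start, and were matched for 42 of the 49 members (all but Ctsb, Ctsh, Npc1, Asah1, Atp6v0d2, Atp6v1b2 and Atp6v1h). The core was found in 13 of these 42 members, or 31.0%, against 8.09% of all 27025 genes with a promoter and 11.2% of those tested in TAM. The longer motif TCACGTG, on either strand, overlaps the core and was found in 11 of the 42 members, or 26.2%, against 4.29% of all genes and 6.63% of those tested in TAM. Of the 25 members with a promoter that were called in at least 1 subset 10 had the core, and of the 17 called in none 3 had it. At least 2 cores were present in 5 members (Ctsa, Ctsd, Gla, Lamp1 and Mcoln1) and in 0.681% of all genes. Lamp1, which rose in all 3 subsets, has 4 cores within 61 bases before its start, a number reached by 6 of the 27025 genes. The Lamp1 promoter (chr8:13158911-13159210, plus strand) and the promoter of Gla (chrX:134600956-134601255, minus strand), the member with opposite calls, are printed 5′ to 3′ with the cores in capitals.
Lamp1: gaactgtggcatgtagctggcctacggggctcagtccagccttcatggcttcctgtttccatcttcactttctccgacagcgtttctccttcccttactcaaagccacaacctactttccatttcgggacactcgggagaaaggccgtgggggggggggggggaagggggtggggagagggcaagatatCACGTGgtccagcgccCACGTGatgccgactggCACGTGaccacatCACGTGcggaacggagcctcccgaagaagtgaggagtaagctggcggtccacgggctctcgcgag
Gla: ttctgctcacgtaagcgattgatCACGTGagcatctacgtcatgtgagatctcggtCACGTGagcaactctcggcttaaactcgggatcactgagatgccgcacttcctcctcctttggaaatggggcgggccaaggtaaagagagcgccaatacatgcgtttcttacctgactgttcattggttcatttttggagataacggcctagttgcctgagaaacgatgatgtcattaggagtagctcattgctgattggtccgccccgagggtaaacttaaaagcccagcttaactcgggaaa

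Windows of 60 bases around the core nearest to the start are printed in the same way for the 8 further members with a core that changed in at least 1 subset, to show how the flanks of the core compare. The core is preceded by t or followed by a in 6 of them and not in Ctsl or Ctsf. The window of Ctsa lies at chr2:164833751-164833810 on the plus strand, that of Ctsd at chr7:142387893-142387952 (minus), that of Ctsf at chr19:4855059-4855118 (plus), that of Ctsl at chr13:64370711-64370770 (minus), and that of Glb1 at chr9:114401003-114401062 (plus). The window of Naglu lies at chr11:101069994-101070053 on the plus strand, that of Mcoln1 at chr8:3500447-3500506 (plus), and that of Atp6v1a at chr16:44139358-44139417 (minus). A match is a description of the letters and no evidence that a factor binds there.
Ctsa: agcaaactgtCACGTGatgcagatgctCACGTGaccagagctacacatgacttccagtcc
Ctsd: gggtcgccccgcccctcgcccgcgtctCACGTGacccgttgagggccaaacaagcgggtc
Ctsf: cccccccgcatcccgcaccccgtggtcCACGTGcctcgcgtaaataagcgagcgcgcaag
Ctsl: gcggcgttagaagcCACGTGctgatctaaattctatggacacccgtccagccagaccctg
Glb1: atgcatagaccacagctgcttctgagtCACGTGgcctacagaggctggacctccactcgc
Naglu: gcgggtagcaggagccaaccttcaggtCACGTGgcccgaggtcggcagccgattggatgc
Mcoln1: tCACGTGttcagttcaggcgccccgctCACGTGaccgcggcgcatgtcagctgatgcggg
Atp6v1a: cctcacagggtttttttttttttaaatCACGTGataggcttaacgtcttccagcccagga

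**Figure D2:**
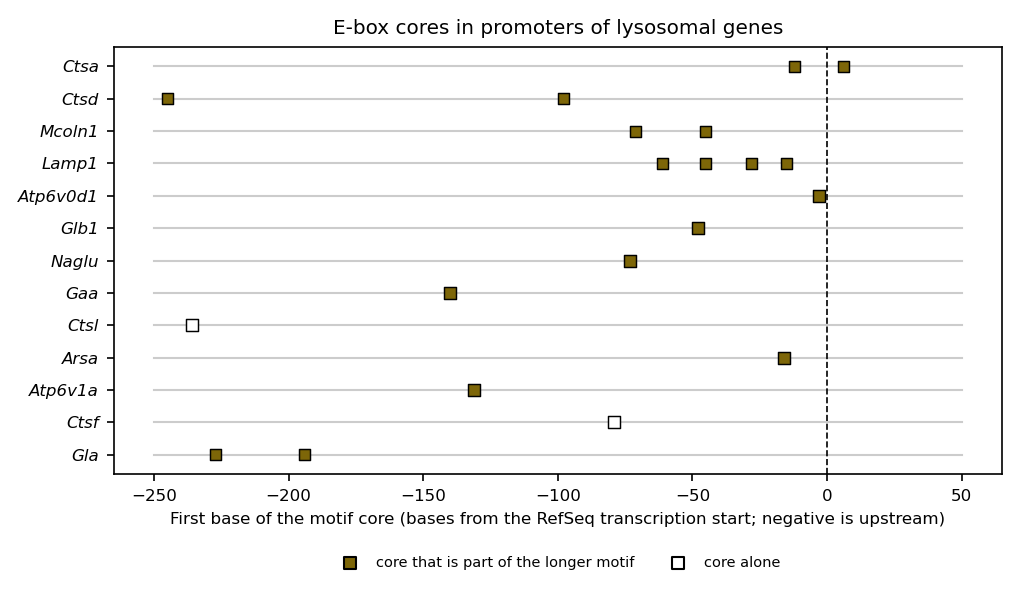
Positions of E-box cores in the RefSeq promoters of the 13 lysosomal genes that hold at least 1, as the distance of the first base from the transcription start (horizontal axis, in bases; dashed line, start; grey lines, the window searched). Filled squares are cores within the longer motif and open squares are cores alone; Lamp1 has 4 cores, at -61, -45, -28 and -15.

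Cathepsins and tripeptidyl peptidase are the proteases of the lysosome. Of 10 such members 6 rose and 1 fell in TAM, 4 rose in monocytes and 4 rose in granulocytes. The shares that rose were 60%, 40% and 40%, against 13.9%, 4.13% and 7.32% of all tested genes. Of all genes with a mean of at least 1000 counts, 31.2%, 6.06% and 12.8% rose. In TAM 12.5% of all tested genes fell. Ctsk, which encodes cathepsin K, a collagen-degrading enzyme best known from osteoclasts, had the highest log2 fold changes of all 49 members. The authors' deposited tables give 2.71 in TAM (Wald statistic 4.78, adjusted p = 3.13e-05), 2.22 in monocytes (4.05, adjusted p = 0.00318) and 2.42 in granulocytes (4.15, adjusted p = 0.000865). These are about 6.55-fold, 4.67-fold and 5.37-fold higher levels in irradiated tumours, at a mean of only 92.0 normalised counts. Acp5, a gene outside the members that encodes tartrate-resistant acid phosphatase and also marks osteoclasts, had log2 fold changes of 1.18, 0.95 and 1.277 in the same order, with adjusted p-values of 0.000389, 0.0231 and 0.000535 in the authors' deposited tables.

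Ctsl, which encodes cathepsin L, rose in both mononuclear subsets, with a log2 fold change of 0.91 in TAM (Wald statistic 5.13, adjusted p = 6.78e-06) and 0.80 in monocytes (4.47, adjusted p = 0.000799) in the authors' deposited tables. In granulocytes its value was 0.38 (adjusted p = 0.149 in the authors' deposited table). Ctsb, for cathepsin B, had 0.38 in TAM and 0.48 in monocytes, both called, and 0.25 in granulocytes (adjusted p = 0.178), per the authors' deposited tables. In GENCODE M21 its exons share 12.8% of their bases with Fdft1 on the opposite strand, and the library kit keeps no strand. Fdft1 had a mean of 465 normalised counts, beside 117566 for Ctsb. The aspartic protease gene Ctsd rose in TAM alone among the calls, at 0.54, beside 0.38 in monocytes (adjusted p = 0.0858) and -0.04 in granulocytes (adjusted p = 0.882) in the authors' deposited tables. Ctsh, an aminopeptidase gene, rose in TAM (0.47) and granulocytes (0.62), and Ctsa, whose product protects other lysosomal enzymes, rose in granulocytes (0.33), per the authors' deposited tables. The call of Ctsh in TAM and that of Ctsa in granulocytes were lost when all genes that have a p-value entered the adjustment (adjusted p = 0.0502 for Ctsh and 0.0907 for Ctsa). The exons of Ctsa share 10.5% of their bases with Pltp on the opposite strand, with means of 19211 normalised counts for Ctsa and 2466 for Pltp. Tpp1, which encodes tripeptidyl peptidase 1, showed closely similar values in the 3 subsets of 0.36, 0.44 and 0.37, in TAM, monocytes and granulocytes, with adjusted p-values of 0.00541, 0.00305 and 0.0126 in the authors' deposited tables.

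Ctsf, for cathepsin F, was the member that fell in TAM. The authors' deposited table gives it -1.05 on the log2 scale (Wald statistic -2.62, adjusted p = 0.0364), at a mean of 57.8 normalised counts. Its values were -0.04 in monocytes and 0.01 in granulocytes in the authors' deposited tables, with adjusted p-values of 0.988 and 0.984 there, and in monocytes the fold and the Wald statistic of 0.05 had opposite signs. The call in TAM was lost when the adjustment took in all genes that have a p-value (adjusted p = 0.0677). Ctsc, which activates the serine proteases of neutrophil granules, and Ctsz, a carboxypeptidase gene, passed in no subset. The authors' deposited tables give Ctsc -0.18 in TAM, 0.29 in monocytes and 0.58 in granulocytes (adjusted p = 0.0686 in the last).

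Glycosidases remove sugars from glycolipids, glycoproteins and glycosaminoglycans. Of 11, 3 rose in TAM (27.3%, against 13.9% of all tested genes), 3 in monocytes (27.3%, against 4.13%) and 2 in granulocytes (18.2%, against 7.32%), where 1 fell. All 11 had a mean of at least 1000 counts. Of all genes with such a mean, 31.2% rose in TAM, 6.06% in monocytes and 12.8% in granulocytes. The TAM share was thus not above that background. Gla, which encodes alpha-galactosidase A, the enzyme that cleaves globotriaosylceramide and is deficient in human Fabry disease, had opposite calls. Its log2 fold change was 1.09 in TAM (Wald statistic 5.19, adjusted p = 5.06e-06) and -1.24 in granulocytes (-5.56, adjusted p = 3.45e-06) in the authors' deposited tables. Irradiated TAM thus had about 2.12-fold the level of untreated TAM, and irradiated granulocytes about 0.423-fold the level of untreated granulocytes. The test of opposite directions gave an adjusted p of 0.00163 over the 15679 genes tested in both. In monocytes Gla had 0.31 (adjusted p = 0.445 in the authors' deposited table). With Wald statistics divided by their robust SD, the adjusted p of the opposite test was 1. The 2 E-box cores in the Gla promoter printed above lie at -227 and -194.

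Idua, which encodes alpha-L-iduronidase, an enzyme of dermatan and heparan sulfate breakdown, rose in TAM by 0.93 on the log2 scale (Wald statistic 5.91, adjusted p = 1.46e-07) and in monocytes by 0.75 (4.62, adjusted p = 0.000456), per the authors' deposited tables. Granulocytes had 0.36 (adjusted p = 0.126 in the authors' deposited table). The exons of Idua share 2.9% of their bases with Dgkq and 3.4% with Slc26a1 on the opposite strand in GENCODE M21. Means were 1158 normalised counts for Idua, 221 for Dgkq and 10.5 for Slc26a1. Neu1, for the sialidase neuraminidase 1, rose in TAM (0.53, adjusted p = 0.000555) and monocytes (0.45, adjusted p = 0.0218) in the authors' deposited tables. Naglu, which acts on heparan sulfate, rose in monocytes (0.52), while Glb1, for beta-galactosidase (0.59), and Fuca1, for alpha-fucosidase (0.36), rose in granulocytes, all in the authors' deposited tables. Both granulocyte calls were lost on the wider adjustment over all genes that have a p-value (adjusted p = 0.0842 for Glb1 and 0.0597 for Fuca1). Gaa, Gusb, Hexa, Man2b1 and Manba, which act on glycogen, glucuronides, GM2 ganglioside and mannosides, passed in no subset. Their values ran between -0.25 and 0.36 in the authors' deposited tables, with Gusb at both ends, in TAM and in granulocytes.

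Of the 3 sulfatase genes, Ids, for iduronate 2-sulfatase, rose in TAM with a log2 fold change of 0.45 (adjusted p = 0.0177 in the authors' deposited table). It had -0.15 in monocytes (adjusted p = 0.659) and -0.35 in granulocytes (adjusted p = 0.143) in the authors' deposited tables. Arsa and Arsb, which remove sulfate from sulfatide and from dermatan sulfate, passed in no subset, with values between -0.52 and 0.28 in the authors' deposited tables. In TAM 13.9% of all tested genes rose, and 31.2% of those with a mean of at least 1000 counts. The 3 sulfatase genes are too few to set a share against these.

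Among lipid hydrolases, their cofactors and sterol carriers, 2 of 10 rose in TAM, 3 in monocytes and 4 in granulocytes, where 1 fell. The shares that rose were 20%, 30% and 40%, against 13.9%, 4.13% and 7.32% of all tested genes. Of all genes with a mean of at least 1000 counts, 31.2%, 6.06% and 12.8% rose. In granulocytes 9.9% of all tested genes fell. Npc2, whose soluble product binds cholesterol in the lumen and hands it to NPC1, rose in each subset. The authors' deposited tables give log2 fold changes of 0.84 in TAM (Wald statistic 5.56, adjusted p = 8.75e-07), 0.49 in monocytes (3.19, adjusted p = 0.0325) and 1.06 in granulocytes (6.64, adjusted p = 1.45e-08). The call in monocytes was lost when the adjustment took in all genes that have a p-value (adjusted p = 0.0699). Npc1, the membrane protein that exports cholesterol, rose in TAM at 0.64 (adjusted p = 0.00981), beside 0.00 in monocytes (adjusted p = 0.994) and 0.17 in granulocytes (adjusted p = 0.661), in the authors' deposited tables. Lipa, for the lysosomal acid lipase that frees cholesterol from its esters, rose in monocytes (0.55, adjusted p = 0.0392) in the authors' deposited table. Its adjusted p there was 0.0835 on the same wider adjustment. Npc1 shares 4.5% of its exonic bases with Rmc1, and Ppt1 3.5% with Cap1, on the opposite strand. Means were 917 normalised counts for Npc1 and 1300 for Rmc1, and 8760 for Ppt1 and 2372 for Cap1.

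Grn, which encodes progranulin, a secreted protein cleaved to granulins in the lysosome, had the smallest adjusted p of the members in monocytes. Its log2 fold change was 0.82 there (Wald statistic 4.79, adjusted p = 0.000254) and 0.99 in granulocytes (5.48, adjusted p = 4.93e-06), beside 0.28 in TAM (1.66, adjusted p = 0.22), in the authors' deposited tables. Psap, for prosaposin, which is cut into the saposin cofactors, rose in granulocytes (0.70, adjusted p = 0.00514), with -0.03 in TAM (adjusted p = 0.924) and -0.26 in monocytes (adjusted p = 0.479), per the authors' deposited tables. In the authors' deposited table Asah1, for acid ceramidase, rose in granulocytes (0.49, Wald statistic 4.39, adjusted p = 0.000385). In TAM its value of 0.25 had an adjusted p of 0.0632, which became 0.0467 when genes with a mean under 50 were left out. Ppt1, for the thioesterase palmitoyl-protein thioesterase 1, fell in granulocytes (-0.46, Wald statistic -3.25, adjusted p = 0.012) and had -0.28 in TAM (adjusted p = 0.107) in the authors' deposited tables. Galc, Smpd1 and Gm2a, which act on galactosylceramide, sphingomyelin and GM2 ganglioside, passed in no subset, with values between -0.27 and 0.41 in the authors' deposited tables.

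**Figure D3:**
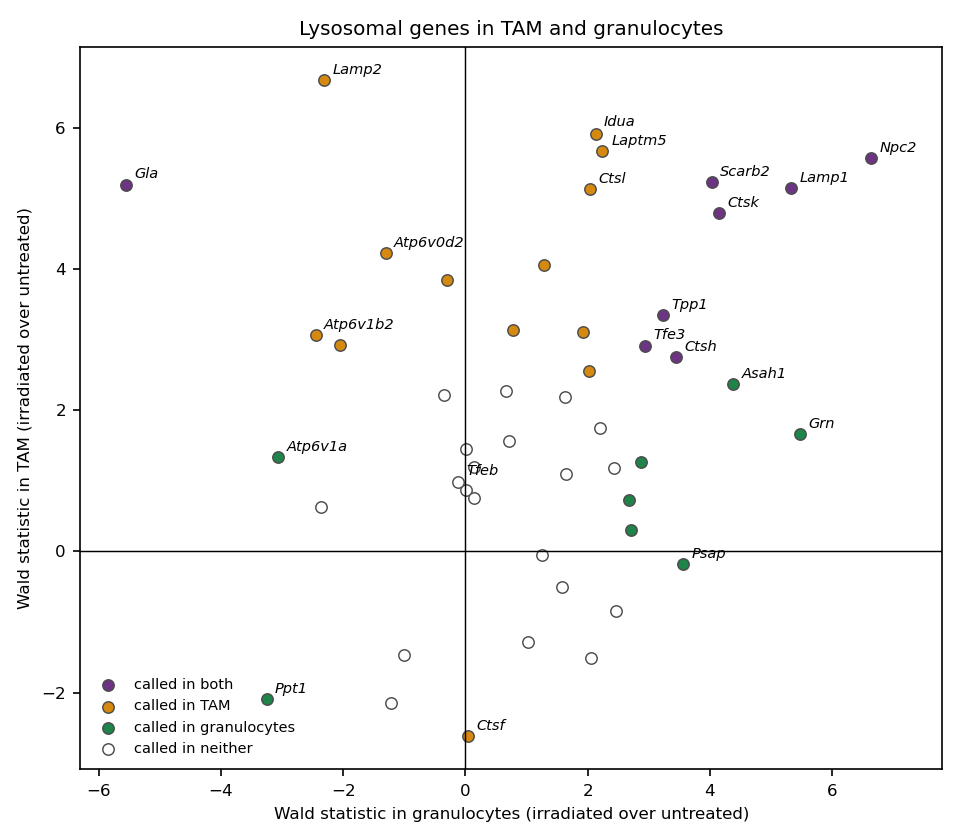
Wald statistic of the 49 lysosomal genes in TAM (vertical axis) and granulocytes (horizontal axis), coloured by the subset in which the adjusted p was under 0.05. Npc2, Lamp1, Scarb2 and Ctsk lie at upper right, and Gla stands apart at upper left with 5.19 in TAM and -5.56 in granulocytes.

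Membrane proteins rose in 5 of 7 cases in TAM, 2 in monocytes and 2 in granulocytes. These shares were 71.4%, 28.6% and 28.6%, against 13.9%, 4.13% and 7.32% of all tested genes. Of all genes with a mean of at least 1000 counts, 31.2%, 6.06% and 12.8% rose. Lamp2, which encodes a main glycoprotein of the lysosomal membrane and a receptor for chaperone-mediated autophagy, had the smallest adjusted p of the members in TAM. The authors' deposited tables give it a log2 fold change of 0.65 in TAM (Wald statistic 6.68, adjusted p = 2.00e-09) and 0.37 in monocytes (3.73, adjusted p = 0.0084). In granulocytes it had -0.24 (-2.32, adjusted p = 0.0912 in the authors' deposited table), and the test of opposite directions in TAM and granulocytes gave an unadjusted p of 0.0206 and an adjusted p of 1. Lamp1, the other abundant glycoprotein gene of this membrane, has the 4 promoter cores printed above and shares 9.3% of its exonic bases with Grtp1 on the opposite strand. Grtp1 had a mean of 64.4 normalised counts, beside 27536 for Lamp1. Lamp1 had 0.37 in TAM (5.14, adjusted p = 6.65e-06), 0.31 in monocytes (4.18, adjusted p = 0.00217) and 0.41 in granulocytes (5.33, adjusted p = 9.33e-06) in the authors' deposited tables.

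Scarb2, for the receptor LIMP-2 that carries glucocerebrosidase to lysosomes, rose in TAM (0.68, Wald statistic 5.23, adjusted p = 4.28e-06) and in granulocytes (0.56, 4.03, adjusted p = 0.00128), per the authors' deposited tables. Monocytes had 0.38 (adjusted p = 0.0668 in the authors' deposited table). Laptm5, a lysosomal transmembrane protein gene of blood cells, rose in TAM at 0.72 (5.66, adjusted p = 5.29e-07), with 0.08 in monocytes (adjusted p = 0.808) and 0.30 in granulocytes (adjusted p = 0.107), in the authors' deposited tables. Mcoln1, for the calcium channel TRPML1, rose in TAM (0.44, adjusted p = 0.0425 in the authors' deposited table), a call lost on the wider adjustment (adjusted p = 0.079). Cd63, for a tetraspanin of late endosomes, and Cd68, a macrophage marker that encodes a lysosomal glycoprotein, passed in no subset. The authors' deposited tables give -0.46, 0.39 and -0.28 for Cd63 and 0.26, -0.04 and -0.04 for Cd68, in TAM, monocytes and granulocytes.

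Of the 5 subunits of the proton pump, 2 rose in TAM, 0 rose in monocytes (1 at an unadjusted p under 0.05 of the authors' DESeq2 test), and 1 fell in granulocytes. The 40% that rose in TAM compare with 13.9% of all tested genes and 31.2% of those with a mean of at least 1000 counts. Of all tested genes, 4.13% rose in monocytes and 9.9% fell in granulocytes. The paired subunits Atp6v0d1 and Atp6v0d2, of which the first is widely expressed and the second is typical of osteoclasts and some macrophages, had different values. The authors' deposited tables give Atp6v0d2 a log2 fold change of 1.87 in TAM (Wald statistic 4.22, adjusted p = 0.000297), 0.96 in monocytes (2.31, adjusted p = 0.16) and -0.57 in granulocytes (-1.30, adjusted p = 0.406). Atp6v0d1 had 0.08, -0.02 and -0.34 in the same order, with adjusted p-values of 0.701, 0.967 and 0.0839 in the authors' deposited tables. Atp6v1b2, a gene of the ATP-hydrolysing sector, rose in TAM (0.35, adjusted p = 0.012), beside 0.01 in monocytes and -0.30 in granulocytes (adjusted p = 0.0714), in the authors' deposited tables. Atp6v1a, for the ATP-hydrolysing subunit, fell in granulocytes (-0.65, -3.06, adjusted p = 0.0193) and had 0.26 in TAM (adjusted p = 0.345) in the authors' deposited tables. Atp6v1h, a regulatory subunit gene, passed in no subset, with 0.11, 0.02 and 0.00 in the authors' deposited tables. None of these 5 genes passed the test of opposite directions in TAM and granulocytes, where Atp6v1b2 had an unadjusted p of 0.0144 and an adjusted p of 0.926.

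Of the 3 MiT/TFE factors, 1 rose in TAM and 1 in granulocytes, in both cases Tfe3. Of all tested genes, 13.9% rose in TAM and 7.32% in granulocytes, and 3 genes are too few to set a share against these. Tfe3 rose in TAM (log2 fold change 0.28, Wald statistic 2.91, adjusted p = 0.0179) and in granulocytes (0.30, 2.94, adjusted p = 0.0253), with 0.03 in monocytes (adjusted p = 0.914), in the authors' deposited tables. The granulocyte call had an adjusted p of 0.0506 when the adjustment took in all genes that have a p-value. Tfeb had 0.17 in TAM (adjusted p = 0.513), -0.13 in monocytes (adjusted p = 0.761) and -0.02 in granulocytes (adjusted p = 0.959) in the authors' deposited tables. Mitf had 0.48 (adjusted p = 0.0901), 0.29 (adjusted p = 0.51) and 0.39 (adjusted p = 0.27) in the same subsets in the authors' deposited tables. TFEB and TFE3 are regulated largely by phosphorylation and nuclear entry, which RNA does not show.

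Lysosomal genes outside the members were described from lists chosen, like the members, with earlier results of these data known. Of all tested genes, 13.9% rose in TAM, 4.13% in monocytes and 7.32% in granulocytes. Of those with a mean of at least 1000 counts, 31.2%, 6.06% and 12.8% rose. Other hydrolases and cofactors rose in 10 of 30 tested cases in TAM, 11 of 30 in monocytes and 14 of 30 in granulocytes, where 1 fell. These shares were 33.3%, 36.7% and 46.7%, of which the TAM share was close to that of highly counted genes. Dnase2a, for the nuclease that digests DNA of engulfed cells, had log2 fold changes of 0.47, 0.80 and 1.13 in TAM, monocytes and granulocytes, with adjusted p-values of 0.000274, 1.85e-09 and 1.61e-16 in the authors' deposited tables. The acid phosphatase gene Acp2 rose in TAM (0.56), monocytes (0.81) and granulocytes (1.01), and Galns, for a keratan sulfate sulfatase, in TAM (0.58) and granulocytes (0.97), per the authors' deposited tables. Other membrane proteins and transporters rose in 13 of 27 cases in TAM (48.1%), 6 in monocytes (22.2%) and 10 in granulocytes (37%), where 1 fell. In TAM, monocytes and granulocytes, the endolysosomal cation channel gene Tpcn2 had 0.73, 0.72 and 0.43, the chloride transporter gene Clcn7 had 0.63, 0.54 and 0.45, and the amino acid transporter gene Slc36a1 had 0.89, 0.78 and 1.46, all past the threshold, in the authors' deposited tables. Litaf, for a membrane protein of late endosomes, fell in granulocytes (-0.85, adjusted p = 4.35e-07) and rose in TAM (0.46, adjusted p = 0.00359) in the authors' deposited tables.

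In TAM 4 of 13 other pump subunit genes rose (30.8%), in monocytes 1 rose (7.7%), while 2 rose (15.4%) and 2 fell in granulocytes. All tested genes rose in 13.9%, 4.13% and 7.32% of cases, and those with a mean of at least 1000 counts in 31.2%, 6.06% and 12.8%. The pump shares were thus close to those of highly counted genes. Tcirg1, for the a3 subunit, rose in TAM (0.48) and granulocytes (0.62), and Atp6ap1, for an accessory subunit, rose in TAM (0.45), in the authors' deposited tables. In TAM 13 of 26 autophagy genes rose (50%), in monocytes 1 rose (3.8%), and in granulocytes 1 rose (3.8%) and 5 fell. In granulocytes 9.9% of all tested genes fell, and 13.5% of those with a mean of at least 1000 counts. Uvrag, which acts in autophagosome maturation, had a log2 fold change of 0.59 in TAM (adjusted p = 2.60e-05) and -0.49 in granulocytes (adjusted p = 0.00263) in the authors' deposited tables. Its adjusted p in the test of opposite directions was 0.0755. Map1lc3b, for the autophagosome protein LC3B (0.41), and the kinase gene Ulk1 (0.96) rose in TAM, and the conjugation enzyme gene Atg3 (-0.49) and the cargo receptor gene Nbr1 (-0.64) fell in granulocytes, per the authors' deposited tables. Over these related lists, 10 genes rose in TAM and fell in granulocytes, and 0 of them passed the test of opposite directions, with adjusted p-values between 0.0755 and 0.779. How many of all tested genes had such a pair of calls was not counted. The 10 therefore have no background and are not shown to be particular to these lists.

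Genes that sense nutrients on the lysosomal surface and control TFEB gave 3 that rose and 2 that fell of 25 in TAM, 2 that rose of 24 in monocytes, and 3 that rose and 5 that fell of 25 in granulocytes. The 12% that rose in TAM compare with 13.9% of all tested genes, so this list did not rise more often than the background there. The shares that rose were 8.3% in monocytes, against 4.13% of all tested genes, and 12% in granulocytes, against 7.32%. Of all genes with a mean of at least 1000 counts, 6.06% rose in monocytes and 12.8% in granulocytes. The granulocyte share was thus not above that background. Of all tested genes, 12.5% fell in TAM and 9.9% in granulocytes. Sesn2, for the leucine sensor Sestrin 2, a known p53 target, rose in TAM (1.57, adjusted p = 9.26e-11) and fell in granulocytes (-0.73, adjusted p = 0.0167) in the authors' deposited tables. Tfec, a further gene of the MiT/TFE family, rose in TAM (0.73), monocytes (0.95) and granulocytes (0.81), with adjusted p-values of 0.00628, 0.00203 and 0.00777 in the authors' deposited tables. Flcn, for folliculin (-0.89), and Rragc, for a Rag GTPase (-0.57), fell in granulocytes in the authors' deposited table. Genes that sort hydrolases to lysosomes rose in 6 and fell in 1 of 18 cases in TAM, rose in 1 in monocytes, and rose in 3 and fell in 3 in granulocytes. The shares that rose were 33.3%, 5.6% and 16.7%. Of all genes with a mean of at least 1000 counts, 31.2%, 6.06% and 12.8% rose, which is close to these shares. Of all genes with such a mean, 14.3% fell in TAM and 13.5% in granulocytes. Lyst, which controls lysosome size (1.40), and Igf2r, for a mannose 6-phosphate receptor (1.47), rose in TAM, and Rab7, for the late endosome GTPase (-0.48), fell in granulocytes, in the authors' deposited tables. Of 3 tested cystatin and stefin genes, which inhibit cathepsins, Cstb rose in TAM (0.63, adjusted p = 0.00648 in the authors' deposited table), and Cst3 had 0.10 in monocytes and 0.24 in granulocytes (adjusted p = 0.774 and 0.303 in the authors' deposited tables).

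**Figure D4:**
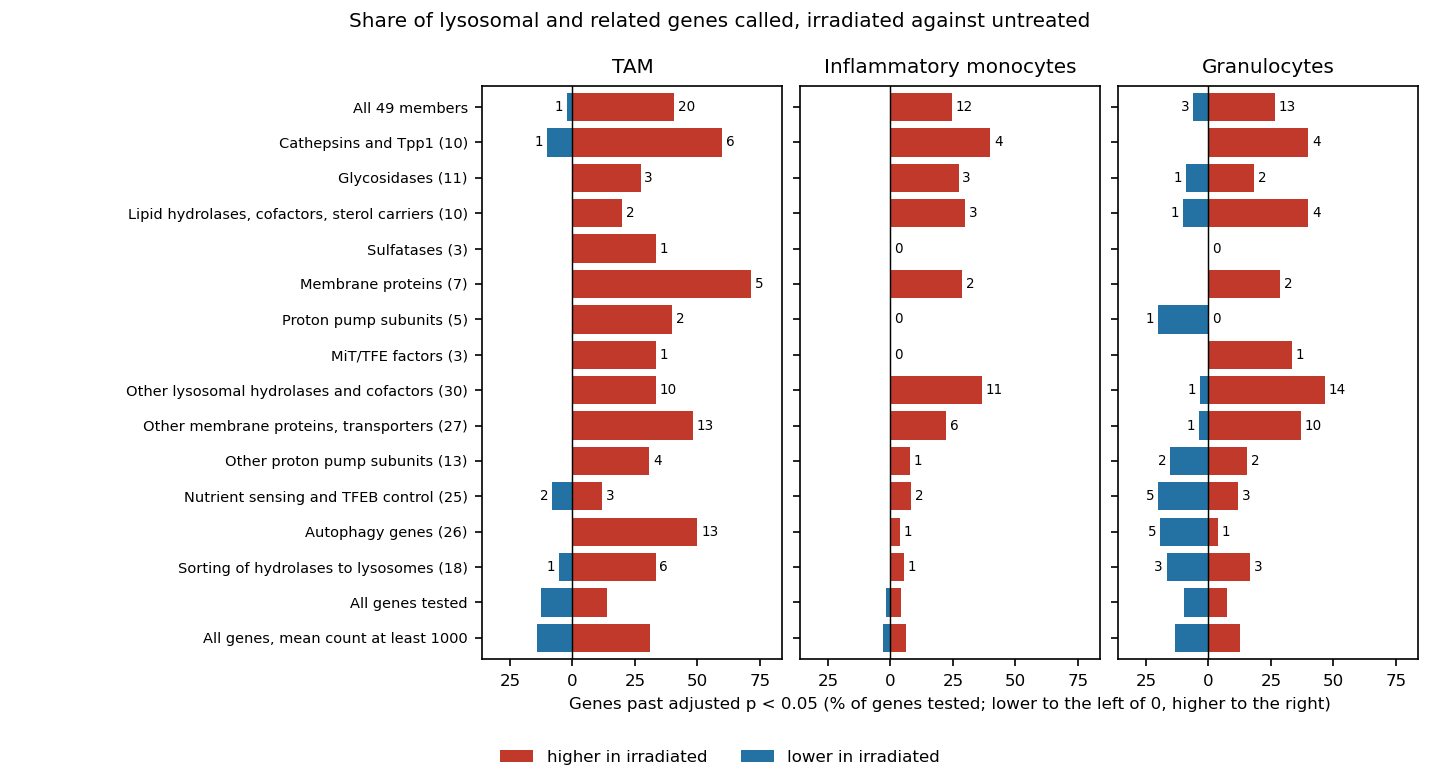
Percentage of tested genes past an adjusted p of 0.05 in irradiated against untreated libraries (horizontal axis; red to the right for higher, blue to the left for lower) for all 49 members, their roles, related lists and all genes, in TAM, monocytes and granulocytes. Numbers beside bars count genes and numbers in brackets count genes tested in TAM (24 of the 25 nutrient sensing genes were tested in monocytes); autophagy genes have 13 higher in TAM, and 1 higher and 5 lower in granulocytes.

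Markers of other cells moved in the same comparisons, and their part in the lysosomal calls was not tested. Of all tested genes, 13.9% rose and 12.5% fell in TAM, 4.13% and 1.77% in monocytes, and 7.32% and 9.9% in granulocytes. Macrophage markers, which include the member Cd68, rose in 4 of 12 cases in TAM, 8 of 12 in monocytes and 6 of 12 in granulocytes. Mertk, a receptor for dead cells, had log2 fold changes of 1.14, 1.91 and 1.58 in these subsets in the authors' deposited tables. Classical monocyte markers rose in 5 of 9 cases in TAM and 3 of 9 in granulocytes, and neutrophil markers in 7 of 12 in monocytes and 1 of 12 in granulocytes. In TAM 10 of 12 neutrophil markers passed with a positive Wald statistic, but 4 of these (S100a8, S100a9, Ngp and Camp) have a negative log2 fold change in the authors' deposited table, so their direction is uncertain. Eosinophil markers rose in 4 of 5 tested cases in TAM, 2 in monocytes and 1 in granulocytes. Dendritic cell markers fell in 4 of 8 cases in TAM, and T and NK cell markers in 2 of 8 in TAM and 3 of 8 in granulocytes. Epithelial and tumour cell markers rose in 2 of 8 cases in TAM, fibroblast markers fell in 2 of 6 in TAM and 2 of 6 in granulocytes, and B cell markers rose in 1 of 5 tested in monocytes and 1 of 6 in granulocytes. Levels of these markers in single subsets were not analysed here, so the sorted gates could not be checked against them.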

How the data were processed

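Per the labels' protocols, total RNA was made into Nextera XT libraries from picogram amounts of cDNA, a kit that keeps no strand. Per the submitters' processing notes, the authors ran R 4.0.2, DESeq2 1.28.1, STAR 2.7.6a and fastp 0.20.1 on the build GRCm39. How reads were counted is not given in the sources used here. The authors deposited 3 tables of comparisons. Their mean normalised count is a signal averaged over libraries by the authors. For 16 called genes in TAM and 3 in inflammatory monocytes, but 0 called members, the authors' log2 fold change differs in sign from their Wald statistic. The fold is therefore not the effect that entered that statistic, and whether it was shrunken cannot be told from this. A two-sided normal test on the Wald statistic, a score deposited by the authors, returns the deposited p-values to within 0.0021 in log10 units. Adjusted p-values deposited by the authors are absent for genes of low mean.

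Members were counted at an adjusted p under 0.05, over all genes the authors tested. The members and lists were chosen with earlier results of these data known, so no list was tested. For opposite directions, the p was the less extreme of the pair where signs differ and 1 otherwise, adjusted by Benjamini-Hochberg across all genes tested in that pair of subsets. The calculations were tested on simulated data. Full statistics are given for the 6 members of smallest adjusted p in each direction and subset, the Atp6v0d pair, the MiT/TFE factors and members with opposite calls. Values of other members are given in brief. Of each other list, up to 3 called genes of smallest p were named. A gene that this rule takes is not reported here. Values of such genes in further subsets, and the background of genes with a mean of at least 1000, were added after values were seen. Promoters were matched by symbol, and the first 30 transcribed bases of 38 of the 49 member promoters occur in a GENCODE M21 transcript of the gene. Python 3.11.15, pandas 2.3.3, numpy 2.4.6 and scipy 1.17.1 were used.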

Additional observations from a re-analysis of the deposited data

Results flagged for a closer look

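Gla differed between subsets under the same contrast. It was higher in irradiated than untreated TAM and lower in irradiated than untreated granulocytes, with an adjusted p of 0.00163 in the test of opposite directions. Its deposited p-values come from 10 irradiated and 5 untreated TAM libraries and 7 irradiated and 5 untreated granulocyte libraries, and how many single tumours show each direction was not analysed here.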

How the results depend on the processing

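No paired analysis was possible because irradiated and untreated tumours carry different numbers and single-library values were not analysed here. For the same reason no library could be left out. With a fold limit of 0.5 on the log2 scale added, 12 members were higher in TAM, 6 in monocytes and 7 in granulocytes. At an adjusted p under 0.01, 8 were higher and 1 lower in granulocytes and 0 were lower in TAM (3 at an unadjusted p under 0.05 of the DESeq2 test), and at 0.1, 2 were lower in TAM and 6 in granulocytes. Adjusted over all genes that have a p-value, 0 were lower in TAM, and 3 calls were lost in TAM (Ctsf, Ctsh, Mcoln1), 2 in monocytes (Lipa, Npc2) and 4 in granulocytes (Ctsa, Glb1, Fuca1, Tfe3). With Wald statistics divided by their robust SD, 0 members were higher or lower in TAM, 0 higher in monocytes, 0 higher or lower in granulocytes, and 0 opposite in TAM and granulocytes (0 also at an unadjusted p under 0.05 of the scaled DESeq2 statistics). The cause was not tested. The longest motif, the 10-base CLEAR palindrome, was in 0 of 42 member promoters (0%), against 0.37% of genes with a promoter. Without the fold limit and the robust SD, counts of higher members over the other settings ran from 14 to 24 in TAM, 9 to 15 in monocytes and 8 to 15 in granulocytes, and centring the Wald statistics on their median was a setting chosen after seeing the data. Relative to the median of all genes, the members' median log2 fold was 0.23 for TAM, 0.25 for monocytes and 0.28 for granulocytes. In TAM, all genes with a mean of at least 1000 counts had a median of 0.175, beside 0.257 for members with such a mean. Depth per library is unknown, and the low means of Ctsf and Ctsk limit their precision.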
